A study of Mus musculus with 2 samples.

Results

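The multidrug efflux pumps of the ATP-binding cassette (ABC) family were examined here in the mouse small intestine after feeding of marine n-3 fatty acids. The 10 genes Abcb1a, Abcb1b, Abcb4, Abcc1, Abcc2, Abcc3, Abcc4, Abcc5, Abcc6 and Abcg2 were taken by name, together with all 22 probesets annotated to them among the 45101 probesets of the array. The genes were chosen by name with the EPA&DHA over control ratios of these arrays already known, so those values are a description and nothing was tested. The animals were male mice of the inbred strain C57BL/6J, aged 4 months, that ate semisynthetic high-fat diets (20% fat by weight) for 4 weeks. On the EPA&DHA diet (sHFf-F2), a marine preparation of long-chain n-3 fatty acids made up 44% of the fat, with DHA (51% of it) far above EPA (6%), and flaxseed oil made up the rest. On the control diet (sHFf), the fat was flaxseed oil alone, whose main n-3 fatty acid is ALA, the plant form. Each diet was given to 12 mice, and 1 array per diet received pooled intestinal RNA, from 11 EPA&DHA mice and from 10 control mice, so the spread between mice was not measured, and no standard error or p-value could be given. The sample labels describe complete small intestine, whereas the methods describe scraped epithelial cells.

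ABC pumps use ATP to drive substrates out of the cell, and each combines membrane-spanning domains with domains that bind ATP. In enterocytes, the absorptive cells of the gut, pumps of the apical membrane return drugs, toxins and conjugated metabolites to the lumen, while pumps of the basolateral membrane pass them on to the blood. P-glycoprotein, the best known apical pump, is encoded in rodents by the neighbouring genes Abcb1a and Abcb1b. The receptors PXR, CAR, PPARα and the stress-responsive factor NRF2 are known to control several of these genes.

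Abcb1a was the efflux pump that differed most between the diets. It was 2.11-fold and 2.61-fold higher on EPA&DHA on its probesets, and Abcc2, the apical pump for glutathione and glucuronide conjugates, was 1.45-fold higher. Abcg2, the apical pump for sulfate conjugates and many drugs, was 1.13-fold higher, and the basolateral pump Abcc3 was 1.05-fold higher. Abcb1b and Abcc4 were the genes with a lower signal on EPA&DHA, both on dim probesets.

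The upstream sequences of Abcb1a, of its paralog Abcb1b and of Abcc2 are shown. Abcb1a and Abcc2 had the highest ratios of the pump genes, and Abcb1b is the gene most closely related to Abcb1a. No direction could be read for Abcb1b itself, as described below. Each holds the 250 bases before the annotated start, from RefSeq on build GRCm38.p6, written 5′ to 3′ on the plus strand, which is the strand of all 3 genes. Capitals mark matches on either strand to the motifs that follow.
Abcb1a, chr5:8566841-8567090: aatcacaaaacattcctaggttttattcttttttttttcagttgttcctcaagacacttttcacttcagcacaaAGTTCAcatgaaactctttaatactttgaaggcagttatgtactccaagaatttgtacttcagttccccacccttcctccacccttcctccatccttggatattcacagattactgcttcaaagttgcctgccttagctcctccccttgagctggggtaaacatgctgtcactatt
Abcb1b, chr5:8797897-8798146: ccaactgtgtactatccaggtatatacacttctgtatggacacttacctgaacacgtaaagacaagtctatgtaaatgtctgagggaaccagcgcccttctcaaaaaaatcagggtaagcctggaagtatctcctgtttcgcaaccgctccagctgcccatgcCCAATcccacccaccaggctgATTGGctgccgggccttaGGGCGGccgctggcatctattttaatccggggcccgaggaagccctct
Abcc2, chr19:43782058-43782307: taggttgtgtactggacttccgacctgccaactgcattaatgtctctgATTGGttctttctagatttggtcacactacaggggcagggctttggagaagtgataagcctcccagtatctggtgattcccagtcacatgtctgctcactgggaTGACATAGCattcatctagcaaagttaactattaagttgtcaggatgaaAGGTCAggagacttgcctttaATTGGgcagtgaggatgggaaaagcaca
The letters searched were CCAAT (the CCAAT box), GGGCGG (the GC box), TGACNNNGC (core of the antioxidant response element bound by NRF2), GCGTG (core of the element bound by the dioxin receptor AhR) and AGGTCA or AGTTCA (hexamers bound by nuclear receptors). In Abcb1a the only match was an AGTTCA hexamer. This stretch precedes the only start listed here for Abcb1a. Whether the intestine uses that start was not examined, and other starts were not searched. In Abcb1b there were 2 CCAAT boxes, on opposite strands, and 1 GC box. In Abcc2 there were 2 reversed CCAAT boxes, 1 antioxidant core and 1 AGGTCA hexamer. The upstream stretch was 40.4% G and C in Abcb1a, 52.8% in Abcb1b and 45.6% in Abcc2, against a median of 52.4% over all promoters in the table. Of all 32851 promoters of this length, 33.8% held a CCAAT box, 32.7% a GC box, 10.2% an antioxidant core, 28.2% an AhR core and 24.2% a receptor hexamer. Of the 10 promoters found for 7 of the pump genes, 3 held a CCAAT box, 5 a GC box and 3 an antioxidant core. An AhR core was in 2 and a receptor hexamer in 5. Abcg2 and Abcc4 entered with several starts, so these are counts of promoters and not of genes. The antioxidant cores were in Abcc2 and Abcc4 only. The paired forms, AGGTCA repeated after 1 base or AGTTCA repeated after 3 or 4 bases, were in none of these 10 promoters and are rare in the table, with 11, 0 and 3 promoters. A match of letters is not a binding site.

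Values are MAS 5.0 signals, in arbitrary units, which the authors scaled to the same trimmed mean on each array. The log2 ratio is EPA&DHA over control. A probeset was kept when the geometric mean of its signals was at least 50, which held for 24461 probesets and for 17 of the 22 probesets of the pumps, and each pump gene had at least 1 kept probeset. Each gene is represented by the brightest of its kept probesets. The local SD is a robust SD, the scaled median absolute deviation, taken over the 500 probesets nearest in signal. It describes how far probesets of that brightness scattered between these arrays and is no measure of variation between mice. Over the dimmest 25% of kept probesets this SD was 0.62, and over the brightest 25% it was 0.24.

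**Figure D1:**
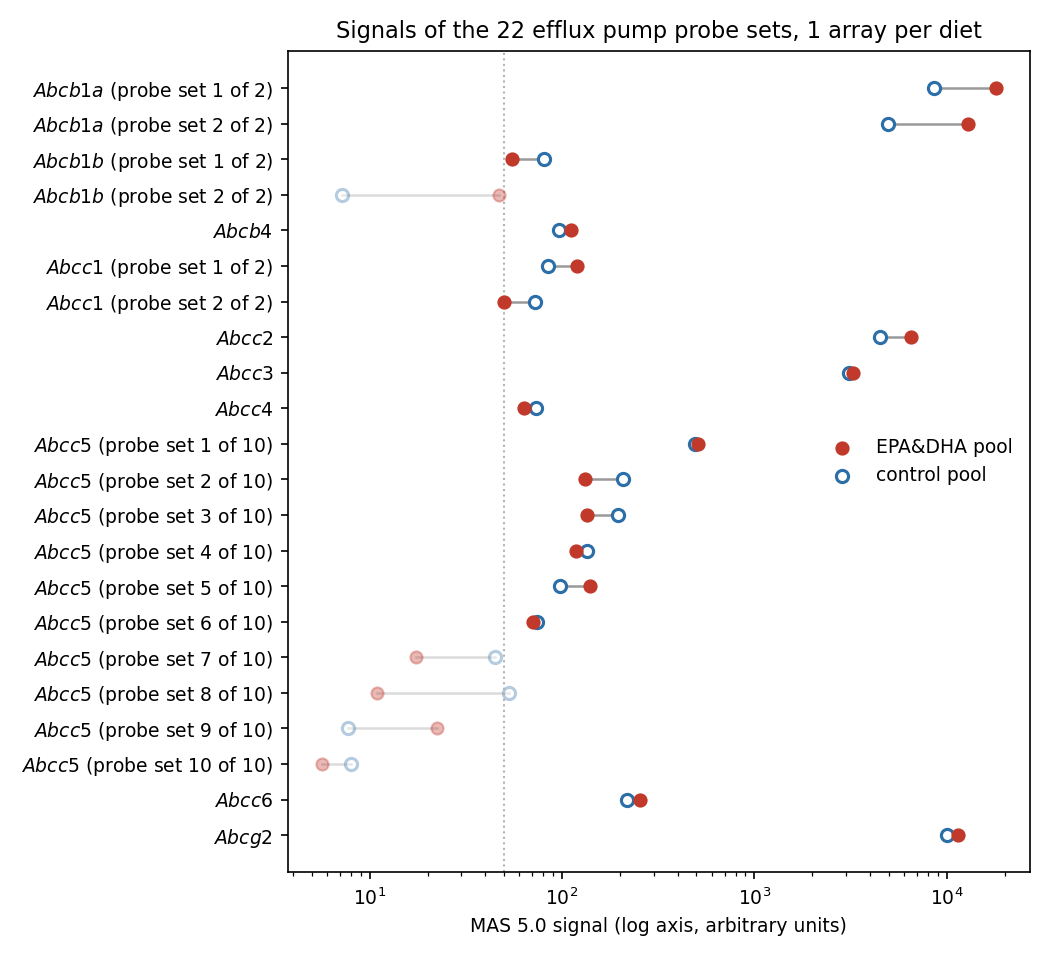
MAS 5.0 signal (log axis, arbitrary units) of the 22 probesets of the efflux pumps on the EPA&DHA array (filled red) and the control array (open blue), 1 array per diet; within a gene, probesets run down in order of brightness. Faded rows are the 5 probesets not kept and the dotted line marks a signal of 50; the widest gap among the bright probesets is that of Abcb1a.

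Among the 17 kept pump probesets, 2 (11.8%) had a signal higher by at least 1.5-fold on EPA&DHA, against a background of 8.11% over the array, and 1 (5.88%) was lower by at least 1.5-fold, against 9.01%. Both higher probesets belonged to Abcb1a and the lower one to Abcc5. By gene, 1 of 10 pumps was at least 1.5-fold higher and 0 were lower, against 6.24% and 8.02% of the 11756 genes measured. Past 2-fold there were 2 pump probesets higher and 0 lower (background 2.31% and 2.63%), and 1 pump gene higher and 0 lower (1.61% and 2.26%). Requiring 3 local SDs besides 1.5-fold also gave 2 probesets higher and 0 lower, and 1 gene higher and 0 lower, beside backgrounds of 1.49% and 0.568% for probesets and 1.22% and 0.621% for genes. The median log2 ratio of the pumps was 0.19, or 0.18 without Abcb1a, and that of all genes was -0.05. The log2 ratio was above 0 in 8 pumps and below 0 in 2. The share of all genes above 0 was not computed, so this split has no background. It also counts Abcc1, Abcc5 and Abcb1b, whose probesets disagreed in sign. The log2 ratio lay within 1 local SD for 8 of the 10 genes, outside 1 local SD for Abcc2, and outside 3 local SDs for Abcb1a.

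Abcb1a encodes the P-glycoprotein that predominates in the mouse gut wall, which pumps many lipophilic drugs back into the lumen. Its brighter probeset had a signal of 18065 on EPA&DHA and 8577 on the control diet. The log2 ratio was 1.07, or 4.79 local SDs. The other probeset had 12983 on EPA&DHA and 4975 on the control diet, a log2 ratio of 1.38 or 6.03 local SDs. Both probesets were designed on the same reference transcript, so they repeat each other in part and are not independent measurements. Ordered by log2 ratio, Abcb1a was number 146 of 11756 genes, and 144 of the 145 genes above it had a lower mean signal, as the plot of log2 ratio against signal shows. Most kept probesets were dimmer than Abcb1a whatever their ratio, with a median signal of 308.3 on each array. The order is given as a description.

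**Figure D2:**
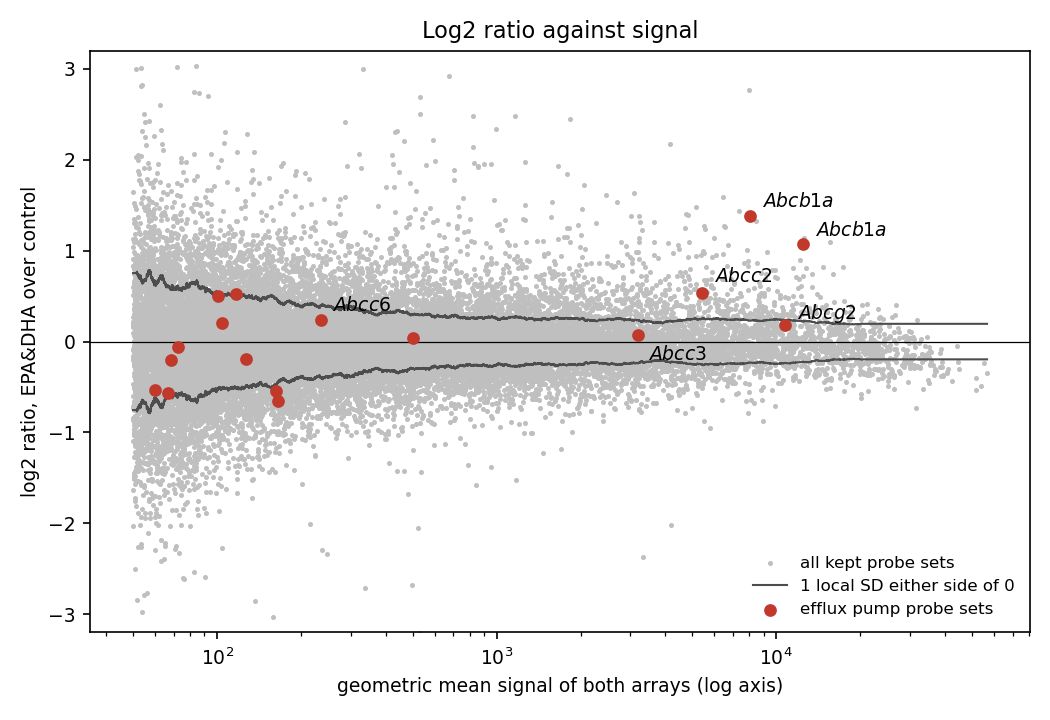
Log2 ratio of EPA&DHA over control (y axis) against the geometric mean signal of both arrays (x axis, log) for all 24461 kept probesets (grey) and the 17 kept probesets of the efflux pumps (red). Dark lines lie 1 local SD above and below 0, and 7 probesets beyond 3.2 on the y axis are not drawn; both Abcb1a probesets, at 1.07 and 1.38, stand far outside the lines, while Abcg2 at 0.18 lies inside.

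In RNA from a mixture of cells, more cells of a type and more transcript per cell cannot be told apart. The Abcb1a signal holds both. Markers of absorptive enterocytes, in which intestinal Abcb1a mainly resides, were bright and slightly lower on EPA&DHA. All 11 measured markers of 12 had a log2 ratio below 0 and none passed 1.5-fold. Over all genes, 6.24% were at least 1.5-fold higher and 8.02% lower, and no share below 0 was computed. The summed signal of the enterocyte markers was 356723 on EPA&DHA and 414467 on the control diet. Endothelium, which also expresses Abcb1a, gave 4 measured markers of 7, with a summed signal of 368 on EPA&DHA and 426 on the control diet. The endothelial markers were dim, and 3 had a log2 ratio below 0 and 1 above 0, Plvap at 0.16. The part of cell composition in the Abcb1a signal was not tested. Markers of the distal small intestine, where P-glycoprotein is more abundant, had log2 ratios from -0.25 to 0.18 over 6 genes, and those of the proximal part from -0.32 to 0.16 over 4 genes. Markers of pancreatic acinar cells were also higher on EPA&DHA. All 7 measured of 9 were at least 1.5-fold higher, against 6.24% of all genes. Their summed signal was 12751 on EPA&DHA and 3927 on the control diet, and their part in the result was not tested.

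Abcb1b, the other P-glycoprotein gene of rodents, is prominent in adrenal and pregnant uterus. Its kept probeset had a signal of 54.8 on EPA&DHA and 80.9 on the control diet, a log2 ratio of -0.56 that was smaller than its local SD of 0.61. A dimmer probeset pointed the other way, with 47.3 on EPA&DHA and 7.17 on the control diet, and was not kept. No direction can be read for this gene at these signals. Abcb4, which flips phosphatidylcholine into bile in the liver and adjoins the P-glycoprotein genes, had 112.1 on EPA&DHA and 97.0 on the control diet. Its log2 ratio of 0.21 was within its local SD of 0.51, so among the kept probesets of the 3 neighbouring Abcb genes, those of Abcb1a alone exceeded their local SD. The Abcb1b probeset that was not kept had a log2 ratio of 2.72 and a local SD of 1.98.

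Abcc2 encodes the pump that secretes conjugates of glutathione, glucuronic acid and sulfate across the apical membrane. Its signal was 6533 on EPA&DHA and 4493 on the control diet, a log2 ratio of 0.54 or 2.17 local SDs. It was just short of 1.5-fold. Only 1 probeset reads Abcc2, and its design (suffix _s_at) allows it to bind more than 1 transcript. Abcg2 encodes the breast cancer resistance protein, an apical pump named after the tumour cells in which it was found. Its signal was 11394 on EPA&DHA and 10058 on the control diet, a log2 ratio of 0.18 where the local SD was 0.23. Abcc4, which exports cyclic nucleotides, prostaglandins and nucleoside drugs, had 63.8 on EPA&DHA and 73.5 on the control diet. Its log2 ratio of -0.20 was well within its local SD of 0.58. Of the apical pumps that were bright in this tissue, Abcb1a and Abcc2 therefore exceeded 1 local SD and Abcg2 did not.

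Of the remaining pumps, Abcc3 and Abcc6 differed by less than their local SDs, while the probesets of Abcc1 and of Abcc5 disagreed. Abcc3, which moves glucuronides and bile salts toward the blood, had 3266 on EPA&DHA and 3115 on the control diet. The log2 ratio was 0.07, against a local SD of 0.24 at this signal. Abcc1, the pump for leukotriene C4 and glutathione conjugates, had 119.4 on EPA&DHA and 84.5 on the control diet, a log2 ratio of 0.50. Its other probeset had 49.9 on EPA&DHA and 72.3 on the control diet, a log2 ratio of -0.53. The probesets of Abcc1 disagreed in sign and both were dim.
Abcc5, an exporter of cyclic GMP and other organic anions, was read by 10 probesets, of which 6 were kept. The brightest had 509.2 on EPA&DHA and 494.4 on the control diet, a log2 ratio of 0.04. Over the kept probesets of Abcc5 the log2 ratio ran from -0.66 to 0.52, above 0 in 2 and below 0 in 4. The lowest had 131.1 on EPA&DHA and 206.6 on the control diet, and was the only pump probeset at least 1.5-fold lower. It lay 1.47 local SDs from 0. The 4 probesets of Abcc5 not kept had signals between 5.63 and 22.4 on EPA&DHA and between 7.71 and 52.9 on the control diet. Abcc6, which acts mainly in liver and kidney and limits soft tissue calcification, had 255.8 on EPA&DHA and 216.6 on the control diet. Its log2 ratio of 0.24 was within its local SD of 0.39.

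**Figure D3:**
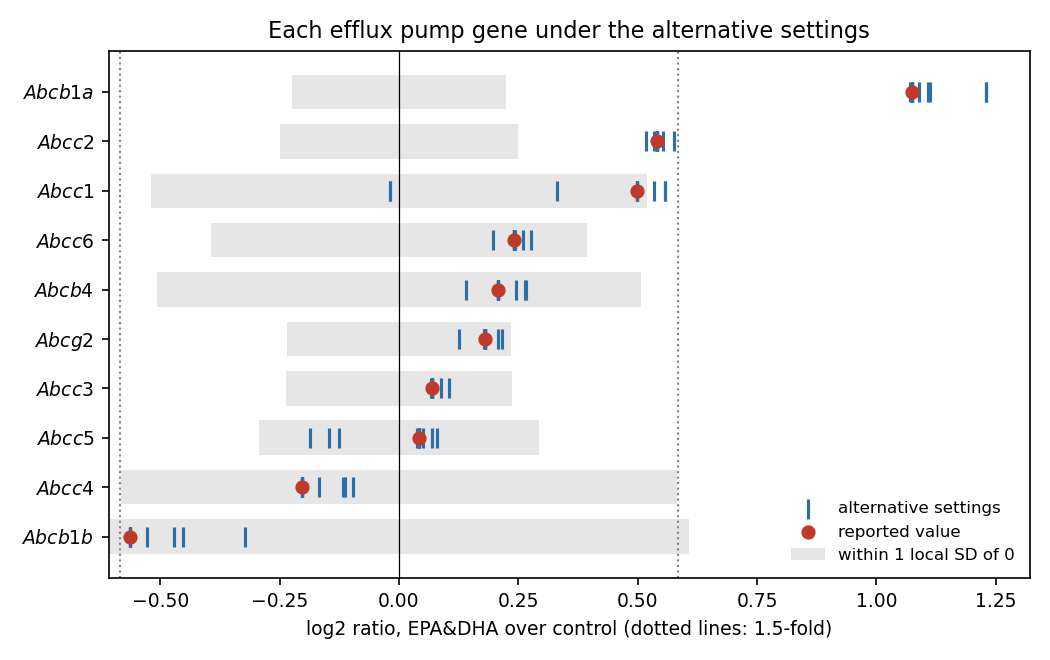
Log2 ratio of EPA&DHA over control (x axis) of each efflux pump gene as reported (red) and under the alternative settings for scaling, offset, filter and choice of probeset (blue ticks), with 1 local SD either side of 0 in grey. Abcb1a stays between 1.07 and 1.23 and Abcc2 between 0.52 and 0.58, while Abcc1 and Abcc5 lie on both sides of 0.

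The transcription factors that control efflux pumps were compared next, from a list of 17 genes of which 15 were measured. The median log2 ratio of this list was 0.12. Over all genes, 6.24% were at least 1.5-fold higher and 8.02% lower, and in this list 2 genes were higher and 0 lower. One was Nr1h4, the bile acid receptor FXR, with 1768 on EPA&DHA and 958.9 on the control diet, a log2 ratio of 0.88. The other was Ppara, the gene of the fatty acid sensor PPARα, which had 3664 on EPA&DHA and 1998 on the control diet, a log2 ratio of 0.87. Nr1i2 encodes PXR, the main drug sensor behind Abcb1a, and had a log2 ratio of 0.21. Nr1i3, which encodes the related receptor CAR, had 0.30, outside its local SD of 0.245. Nfe2l2 (NRF2), Ahr and Vdr (the vitamin D receptor) had log2 ratios of 0.14, 0.12 and 0.10, each within 1 local SD. A second probeset of Nfe2l2 had 0.85, so that value depends on the probeset.
Target genes were listed for PXR and CAR, for NRF2 and for AhR, and not for the other factors. The backgrounds of 6.24% higher and 8.02% lower apply to these lists too, and no share above 0 was computed over all genes. Among PXR and CAR targets, 1 of 8 measured genes was at least 1.5-fold higher and 0 lower, with a median of 0.33 and 7 genes above 0. The higher gene was Aldh1a1, a retinaldehyde dehydrogenase, with a log2 ratio of 0.82. The drug-oxidizing Cyp3a11, the usual reporter of PXR in mice, had 0.27, outside its local SD of 0.195. Cyp3a13 and Cyp3a25 each had 0.44, outside their local SDs of 0.199 and 0.194. Ces2a had 0.39, Cyp2c65 had 0.10 and Cyp2b10 had 0.004. Cyp2c55, the only gene of this list below 0, had -0.43, outside its local SD of 0.22. Among NRF2 targets, 3 of 9 were at least 1.5-fold higher and 0 lower, with a median of 0.24. They were the epoxide hydrolase Ephx1 (log2 ratio 1.28), Gclc, the catalytic subunit for glutathione synthesis (0.87), and the quinone reductase Nqo1 (0.61). Srxn1 (sulfiredoxin), also an NRF2 target, had -0.32. Only 2 of 6 AhR targets were measured, Tiparp at -0.25 and Cyp1a1 at -0.45, with a median of -0.35.

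**Figure D4:**
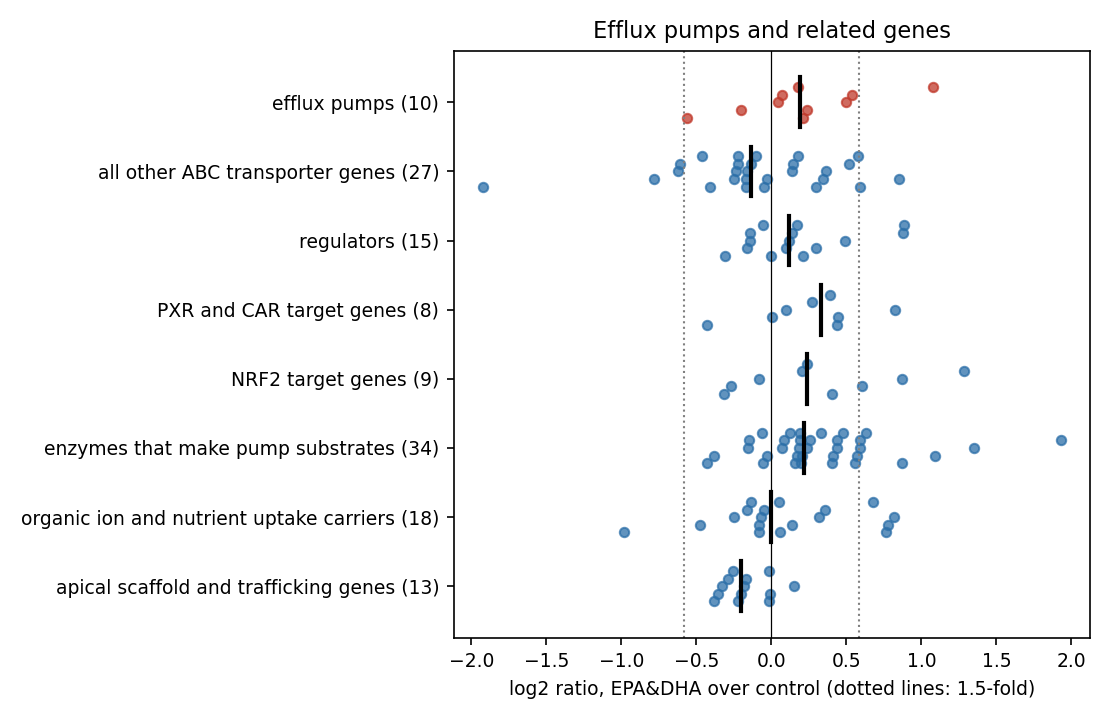
Log2 ratio of EPA&DHA over control (x axis) for each measured gene (points) of the efflux pumps (red) and of 7 related lists (blue), with the number of genes in brackets and black bars at the medians. Points are spread vertically only for legibility; medians of the lists drawn run from 0.33 for PXR and CAR targets to -0.20 for apical scaffold and trafficking genes, and the AhR targets (median -0.35) and the genes of exported signals (-0.19) are not drawn.

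Abcc2, Abcc3 and Abcg2 export conjugates, and the enzymes that make these conjugates formed a list of 41 genes with 34 measured. The background for this and the lists that follow is 6.24% of all genes higher and 8.02% lower, and no share above 0 was computed. In this list of enzymes 7 genes were at least 1.5-fold higher and 0 lower, 27 were above 0, and the median log2 ratio was 0.22. The largest were the glutathione transferases Gsta3 (1.93) and Gsta2 (1.35) and the glucuronosyltransferase Ugt2b5 (1.09), followed by Gclc. Gsta3 had 569.7 on EPA&DHA and 149.5 on the control diet, but its second probeset gave a log2 ratio of 0.37. Carriers of organic ions and nutrients are called uptake carriers below, though not all of them serve uptake. Of 25 such carriers, 18 were measured. Of these, 4 were at least 1.5-fold higher and 1 lower, with a median of 0.00. The higher ones were the peptide carrier Slc15a1 (0.82), the organic cation extruder Slc47a1 (0.78), the carnitine carrier Slc22a5 (0.76) and the thiamine carrier Slc19a2 (0.68). The lower one was the anion carrier Slco3a1 (-0.98), on a dim probeset. Scaffold and trafficking proteins that hold pumps at the apical membrane had 0 of 13 genes past 1.5-fold in either direction, with 12 below 0 and a median of -0.20. Among them Pdzk1, which binds Abcc2, had -0.17, and Ezr (ezrin) had 0.15 on its brighter probeset and -0.22 on the other. Enzymes and carriers of signals that Abcc1 and Abcc4 export, such as leukotrienes, prostaglandins and cyclic nucleotides, had 0 of 9 measured genes higher and 1 lower, the phosphodiesterase Pde4b at -0.75 on a dim probeset, and a median of -0.19.

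The rest of the ABC family was read by kept probesets for 27 of 43 genes. Of these 27, 2 were at least 1.5-fold higher and 4 lower, beside a background of 6.24% and 8.02% of all genes. Their median log2 ratio was -0.14, against the median of 0.19 over the efflux pumps. The difference between these medians was not tested. At the upper end stood Abcg3 (0.85) and Abcc8 (0.59), both with a control signal under 50, Abca1 (0.58), which exports cholesterol to apolipoprotein A-I, Abcc10 (0.52) and the peroxisomal Abcd3 (0.36). At the lower end stood Abca9 (-1.92), Abca8a (-0.78) and Abca5 (-0.62), all dim, then Abcb8 (-0.61), a mitochondrial transporter, and Tap1 (-0.46), which loads peptides for class I molecules. The second probeset of Abcb8 gave 0.54.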

How the data were processed

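The authors extracted RNA with TRIzol and RNeasy columns, and summarized probe intensity on Affymetrix MOE430_2 arrays, 1 per pooled diet group, with MAS 5.0. The deposited intensity values are linear probeset signals scaled by the authors. Detection calls and change p-values were not used here. Of 45101 probesets, 64 controls were set aside. Of the 45037 left, 34945 named 1 gene in the platform annotation, 932 several and 9160 none. Both arrays were set to the same 2% trimmed mean, which left the signals unchanged, and log2 ratios were taken without an offset. The ratio of 3' to 5' signal, a measure of intact RNA, was 0.793 on EPA&DHA and 0.932 on the control diet for Gapdh. For Actb it was 1.16 on EPA&DHA and 1.22 on the control diet.

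The pumps and lists were chosen with earlier results of these data known. The named genes were all 10 pumps, Nr1i2, Nr1i3, Nfe2l2, Ahr, Ppara and Vdr, up to 4 genes each way past 1.5-fold per list, and the 5 highest and 5 lowest other ABC genes; other genes of a list were named after their values were seen. Protein sequences were not used here. The receptor hexamer was added after the planned motifs had been searched. Alternatives changed scaling, offset, filter, fold and the probeset per gene. The code, tested on simulated arrays, ran under Python 3.11.15 with pandas 2.3.3, numpy 2.4.6, matplotlib 3.10.9 and statsmodels 0.14.6.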

Additional observations from a re-analysis of the deposited data

How the results depend on the processing

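Under alternative scalings, an offset of 50, other filters and other ways to pick a probeset, all 103 recomputed log2 ratios of the 10 pump genes moved by less than 1 local SD. Many of these could not move. Leaving out the scaling changed no signal, and a filter can drop a gene but not change its brightest probeset. For genes with 1 kept probeset, the choice of probeset is fixed too. The count of 103 is therefore no measure of robustness. Abcb1a ran from 1.07 to 1.23, Abcc2 from 0.52 to 0.58, and the median of the pumps from 0.12 to 0.23. In every setting 1 pump gene was at least 1.5-fold higher and 0 lower, also at 2-fold and with 3 local SDs required. Abcc1 ran from -0.02 to 0.56 and Abcc5 from -0.19 to 0.08, so neither has a direction. The count of pump probesets at least 1.5-fold higher was 4 in place of 2 without a filter. The count of lower probesets was 1 as reported, 3 without a filter, and 0 with the offset of 50, a minimum mean signal of 200, the 2-fold limit or 3 local SDs. The median of the AhR targets, -0.35 as reported, turned to 0.32 without the shared-design probesets, and that of the uptake carriers, 0.00 as reported, ran from -0.08 to 0.05. The medians of the other lists kept their sign: 0.09 to 0.18 for regulators, 0.33 to 0.39 for PXR and CAR targets, 0.20 to 0.32 for NRF2 targets, 0.20 to 0.31 for conjugating enzymes, -0.21 to -0.07 for scaffold genes, -0.19 to -0.10 for genes of exported signals and -0.17 to -0.05 for other ABC genes. Counts of higher genes ran from 3 to 9 for conjugating enzymes (7 reported), 0 to 6 for uptake carriers (4), 0 to 4 for other ABC genes (2), 1 to 3 for NRF2 targets (3), 0 to 2 for PXR and CAR targets (1) and 0 to 2 for regulators (2). Counts of lower genes ran from 0 to 10 for other ABC genes (4) and from 0 to 2 for uptake carriers (1). Without the probesets of suffix _s_at, _x_at or _a_at, Abcc2 had no value. At a minimum mean signal of 100, Abcb1b and Abcc4 dropped out, and at 200 also Abcb4 and Abcc1. With 1 array per diet, precision is limited by the number of arrays. No paired analysis was possible because each diet had 1 array.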

Other observations

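The genes next to the P-glycoprotein cluster on chromosome 5 were looked up after the value of Abcb1a was known, with their order taken from RefSeq on GRCm38.p6. Rundc3b, whose annotated span overlaps that of Abcb1a, had 2837 on EPA&DHA and 1969 on the control diet, a log2 ratio of 0.53 where the local SD was 0.24. On the other side, beyond Abcb4, stood Crot, a peroxisomal carnitine acyltransferase that hands shortened fatty acids on to mitochondria. Its signal was 10227 on EPA&DHA and 7300 on the control diet, a log2 ratio of 0.49 where it was 0.23, and its dimmer probeset gave 0.45. The next genes were Tmem243, with log2 ratios of 0.45 and 0.35, and Dmtf1, with 0.30 and 0.08. Slc25a40 and Dbf4, beyond Rundc3b, had 0.20 and 0.17, within their local SDs of 0.36 and 0.32, and Adam22 had -0.80 on a dim probeset. Elapor2, beyond Dmtf1, had no kept probeset. The bright genes around Abcb1a were thus higher on EPA&DHA too, each below 1.5-fold, and whether they share anything with it was not tested.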
